A study of Triticum aestivum with 12 samples.

Results

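Mozart1 genes encode a very small subunit of the machinery that starts new microtubules. In wheat anthers of ‘Mv 17-09’ collected after 24 h at 35 °C, the 3 Mozart1 genes named in the spindle assembly gene list of the study together had 5.2 ± 0.801 CPM, against 13.9 ± 0.781 CPM in ‘Mv 17-09’ controls (SD, n = 3 each; CPM, counts scaled to a common library size). In heat-stressed ‘Ellvis’ they had 14.5 ± 1.25 CPM, against 12.9 ± 1.92 CPM in ‘Ellvis’ controls (SD, n = 3 each). Without ‘Ellvis’ control replicate 1, which had only 19 counts for the 3 genes, the ‘Ellvis’ control mean was 14.0 CPM (n = 2). The 3 genes are TraesCS1D03G0595700, TraesCS5A03G1140800 and TraesCS5B03G1212900, out of 266760 gene models in the count files, and all 3 passed the filter on low counts that 70527 genes passed.

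These genes were chosen by values measured in the same libraries. According to a note to that list, they are genes with a Mozart1 protein domain that were called differentially expressed, so a Mozart1 gene without such a call would not be among them. Every comparison of heat-stressed with control anthers is therefore given below as a description, without a test, and so are the difference between the cultivars in that comparison and the comparison of the heat-stressed groups. Only the comparison of the unstressed groups is tested. It uses the same control libraries as the comparison behind the choice.

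The microtubules of a plant cell are nucleated without a centrosome, by γ-tubulin complexes at the nuclear envelope, at the cell cortex and along existing microtubules. The complex is built from γ-tubulin and the γ-tubulin complex proteins (GCPs). In Arabidopsis, MOZART1 is also known as GIP1, for GCP3-interacting protein, a very small protein that binds GCP3 and is needed for placing γ-tubulin complexes at their sites and for an ordered spindle. NEDD1 is a targeting factor of the complex in Arabidopsis.

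The anthers came from bread wheat grown either without stress or with 1 heat treatment applied around the onset of meiosis, and control spikes were taken at the same developmental stage. The 4 groups of 3 libraries each were heat-stressed ‘Mv 17-09’, ‘Mv 17-09’ controls, heat-stressed ‘Ellvis’ and ‘Ellvis’ controls. The study describes ‘Mv 17-09’ as the sensitive and ‘Ellvis’ as the tolerant cultivar, so each class is represented by a single genotype. Libraries were made from RNA of whole anthers after removal of ribosomal RNA. The study lists several plants per genotype and treatment and repeats in separate growing experiments, and the labels do not say which experiment a library came from.

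Library totals were 9336312 to 20846135 counts in 11 libraries and 1831675 in ‘Ellvis’ control replicate 1, where 28549 genes had at least 10 counts, against 53847 to 65988 in the other 11. Despite its low total, that library had a count for 121643 genes, against 106904 and 104793 in ‘Ellvis’ control replicates 2 and 3. The range in the other 11 libraries was 99375 to 128606. Its counts were thus spread over many genes, and the reason was not tested. Genes of meiotic recombination and synapsis, fixed as markers of meiocytes, were detected in all groups, with summed levels of 162 to 178 CPM in heat-stressed ‘Mv 17-09’, 162 to 187 CPM in ‘Mv 17-09’ controls, 184.1 to 184.4 CPM in heat-stressed ‘Ellvis’ and 135 to 230 CPM in ‘Ellvis’ controls (30 genes). Genes of tapetal sporopollenin synthesis and export were detected as well, which fits the anther label.

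TraesCS1D03G0595700 is annotated as mitotic-spindle organizing protein 1A and has no entry in the gene table used for positions. TraesCS5A03G1140800 and TraesCS5B03G1212900 are both annotated as mitotic-spindle organizing protein 1B-like. In the RefSeq annotation of the IWGSC v2.1 assembly the 5A gene (LOC123105719) lies on chromosome 5A from 658828981 to 658831763, with 2 mRNA and 2 other transcripts. The 5B gene (LOC123114051) lies on chromosome 5B from 666988756 to 666991484, with 3 mRNA transcripts. Copies in different subgenomes of wheat can share reads, and how such reads were assigned is not given in the sources used here, which makes the level of a single copy less secure than the sum of the 3.

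TraesCS1D03G0595700 had 2.19, 4.09 and 2.25 CPM in heat-stressed ‘Mv 17-09’, against 6.44, 7.45 and 7.68 CPM in ‘Mv 17-09’ controls. Behind these values stood 21, 39 and 21 counts in the heat-stressed libraries, against 96, 142 and 118 counts in the controls. The groups did not overlap, and replicate 2 was the highest of the heat-stressed libraries. The log2 fold change of heat over control was -1.34 (SE 0.22, 95% interval -1.81 to -0.87), which leaves 39.5% of the control mean. Without heat-stressed replicate 2 the log2 fold change was -1.70.

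In ‘Ellvis’, TraesCS1D03G0595700 had 7.15, 6.83 and 5.78 CPM in heat-stressed anthers, against 5.08, 6.99 and 7.81 CPM in controls. The groups overlapped, and the lowest control value rested on 9 counts in the shallow library (exact Poisson 95% interval 2.33 to 9.65 CPM; such intervals cover counting error only). Its log2 fold change was -0.11 (SE 0.2, 95% interval -0.54 to 0.31).

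TraesCS5A03G1140800 had 2.19, 1.68 and 2.36 CPM in heat-stressed ‘Mv 17-09’, against 5.37, 4.62 and 5.27 CPM in ‘Mv 17-09’ controls. The 3 heat-stressed libraries (21, 16 and 22 counts) lay close together and below all 3 controls (80, 88 and 81 counts). Relative to control, the log2 fold change was -1.29 (SE 0.21, 95% interval -1.73 to -0.85), or 40.8% of the control mean.

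In ‘Ellvis’ the 5A gene had 6.06, 5.49 and 5.40 CPM in heat-stressed anthers, against 2.83, 5.22 and 4.44 CPM in controls. Each heat-stressed library was above each control, although by a narrow margin over control replicate 2. The lowest control value came from 5 counts in the shallow library (exact Poisson 95% interval 0.917 to 6.59 CPM). Heat over control gave a log2 fold change of 0.29 (SE 0.18, 95% interval -0.10 to 0.68), and 0.21 without that library.

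TraesCS5B03G1212900 had the fewest counts of the 3 genes. In heat-stressed ‘Mv 17-09’ it had 0, 0.21 and 0.642 CPM (0, 2 and 6 counts), against 1.68, 1.31 and 1.82 CPM in ‘Mv 17-09’ controls (25, 25 and 28 counts). For the count of 0 in replicate 1, the exact Poisson 95% upper limit was 0.3845 CPM, and 3 counts would have been 0.313 CPM. All 3 heat-stressed libraries lay below the controls, while among themselves they varied by more than their mean (SD 0.328, mean 0.284 CPM). The log2 fold change was -2.46 (SE 0.56, 95% interval -3.64 to -1.29), or 17.7% of the control mean, and -3.83 without heat-stressed replicate 3, which carried 6 of the 8 counts.

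In ‘Ellvis’ the 5B gene had 2.11, 2.74 and 1.87 CPM in heat-stressed anthers, against 2.83, 1.48 and 2.08 CPM in controls. The groups overlapped, with a log2 fold change of 0.25 (SE 0.39, 95% interval -0.58 to 1.09).

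**Figure D1:**
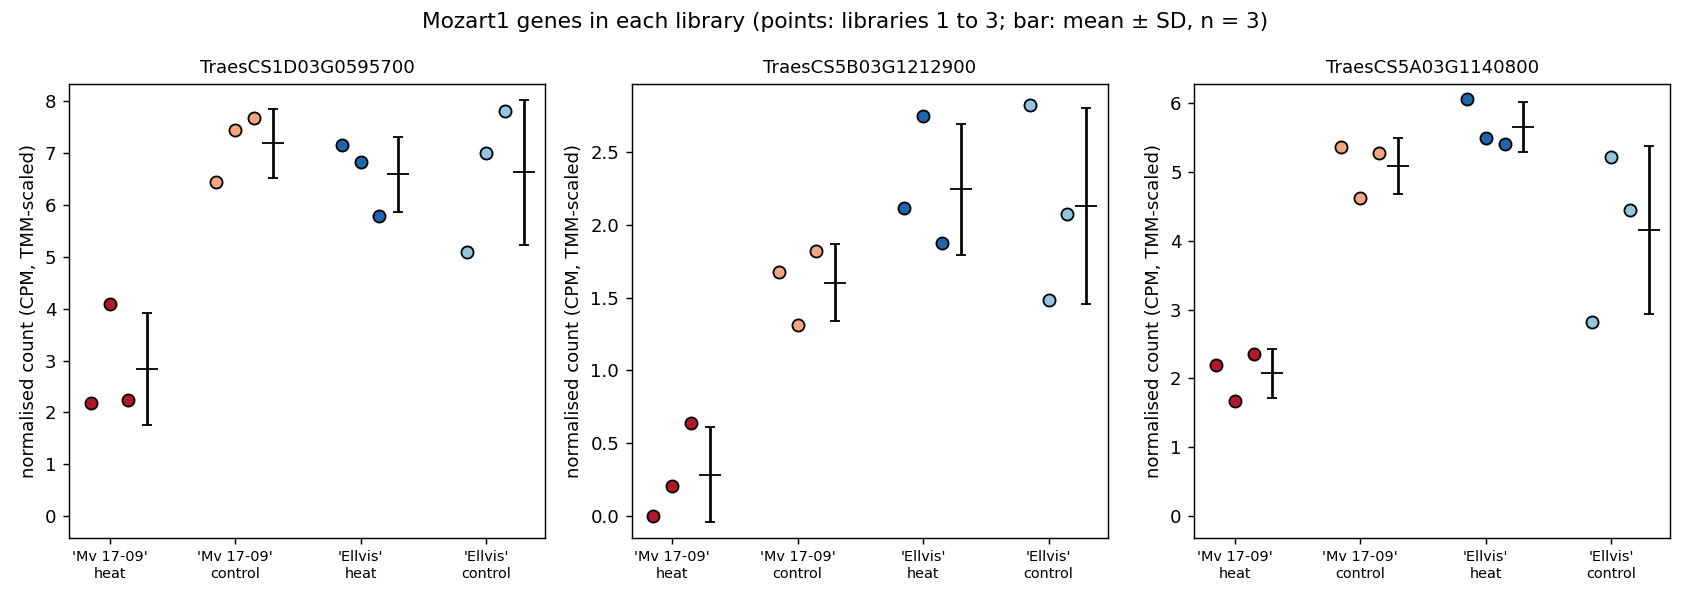
Level of each Mozart1 gene in CPM (vertical axis, TMM-scaled) in each of the 12 libraries; points are libraries, and horizontal marks with bars are group means ± SD (n = 3). The highest heat-stressed ‘Mv 17-09’ library lies at 4.09, 0.642 and 2.36 CPM from the left panel to the right.

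For each of the 3 genes the 3 heat-stressed ‘Mv 17-09’ libraries were below all 9 other libraries. The share of all genes with this pattern was not counted. The genes were chosen by their heat response, so nothing is read from it. The closest approach was in the 5A gene, at 2.36 CPM in the highest heat-stressed ‘Mv 17-09’ library and 2.83 CPM in the shallow ‘Ellvis’ control. The remaining groups kept no common order over the genes. ‘Mv 17-09’ controls were highest for the 1D gene at 7.19 CPM, followed by ‘Ellvis’ controls at 6.63 CPM and heat-stressed ‘Ellvis’ at 6.59 CPM, with overlapping libraries. The 5A and 5B genes were highest in heat-stressed ‘Ellvis’, at 5.65 and 2.24 CPM. The 5A gene in heat-stressed ‘Ellvis’ barely cleared ‘Mv 17-09’ controls, with a lowest library of 5.40 CPM against a highest of 5.37 CPM.

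By edgeR with an adjusted p under 0.05 and a 2-fold change, 3 of 3 Mozart1 genes were lower in heat-stressed than in control ‘Mv 17-09’, where 6.93% of all genes tested were lower and 4.67% higher. In ‘Mv 17-09’, 3 of 3 had heat-stressed libraries entirely below the controls, where 23.4% of all genes did. In ‘Ellvis’, 0 of 3 were called in either direction, where 1.64% of all genes were lower and 1.98% higher. There 1 of 3, the 5A gene, had heat-stressed libraries entirely above the controls, as 12.7% of all genes did, and 0 of 3 entirely below, as 10.2% did. The genes were selected on these contrasts, so nothing is read from the counts. With thresholds as strict as those of the study, an adjusted p under 1e-06 by DESeq2 and by the likelihood ratio test of edgeR alike, 0 of 3 were lower in ‘Mv 17-09’ and 0 of 3 in ‘Ellvis’, with 2.23% and 0.41% of all genes. The study itself, working in CLC Genomics Workbench, lists these genes as called, so the 0 belongs to the rebuilt thresholds. The share of all genes with a more negative heat log2 fold change in ‘Mv 17-09’ was 7.06% for the 1D gene, 7.54% for the 5A gene and 2.1% for the 5B gene.

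Subtracting the heat log2 fold change in ‘Ellvis’ from that in ‘Mv 17-09’ gave -1.23 (SE 0.3) for the 1D gene, -1.58 (SE 0.28) for the 5A gene and -2.72 (SE 0.69) for the 5B gene. Between the heat-stressed groups, ‘Mv 17-09’ minus ‘Ellvis’, the log2 differences were -1.21 (SE 0.22), -1.44 (SE 0.21) and -2.96 (SE 0.53) in the same order. The heat-stressed libraries of the cultivars did not overlap in any of the 3 genes. How many of all genes separate in this way was not counted, so nothing is read from it.

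Between unstressed anthers, the comparison that did not enter the choice, none of the 3 genes was called. TraesCS1D03G0595700 differed by 0.02 on the log2 scale, ‘Mv 17-09’ minus ‘Ellvis’ (SE 0.2, 95% interval -0.40 to 0.44, edgeR adjusted p = 0.967). For TraesCS5A03G1140800 the difference was 0.14 (SE 0.19, 95% interval -0.26 to 0.53, edgeR adjusted p = 0.74). For TraesCS5B03G1212900 it was -0.24 (SE 0.41, 95% interval -1.10 to 0.62, edgeR adjusted p = 0.743). The intervals of the 1D and 5A genes leave out a 2-fold difference in either direction, and that of the 5B gene does not leave out a 2-fold lower level in ‘Mv 17-09’. Control libraries overlapped for all 3 genes, and 0 of 3 reached an unadjusted p under 0.05 or were called by DESeq2 or limma. Over all genes tested, 7.02% were lower and 5.83% higher in ‘Mv 17-09’ controls, and 15.7% lay entirely below and 17.8% entirely above the ‘Ellvis’ controls.

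The spread between libraries of a group was close to counting error in many places. For the sum of the 3 genes the coefficient of variation was 15.4% in heat-stressed ‘Mv 17-09’, where counting alone gives 14.2%, and 5.63% in ‘Mv 17-09’ controls, where counting alone gives 6.66%. The 1D gene in heat-stressed ‘Mv 17-09’ was an exception, at 38% against 19.3% from counting, and so was the 5B gene there, at 115% against 60.9%.

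The copies contributed unequal shares of the summed Mozart1 counts. These are shares of counts, not corrected for transcript length, so they do not rank the copies by transcript number. With the counts of a group pooled, the 1D gene held 54.7% in heat-stressed and 52.1% in control ‘Mv 17-09’, and 45.4% in heat-stressed and 52.4% in control ‘Ellvis’. The 5B gene held 5.41% of 148 counts in heat-stressed ‘Mv 17-09’ (Wilson 95% interval 2.76 to 10.3%) and 11.4% of 683 counts in ‘Mv 17-09’ controls (9.25 to 14%). Those intervals overlap. In heat-stressed ‘Ellvis’ its share was 15.6%, and in ‘Ellvis’ controls 13.1%. Single heat-stressed ‘Mv 17-09’ libraries were variable, with 0, 3.51 and 12.2% for the 5B gene.

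**Figure D2:**
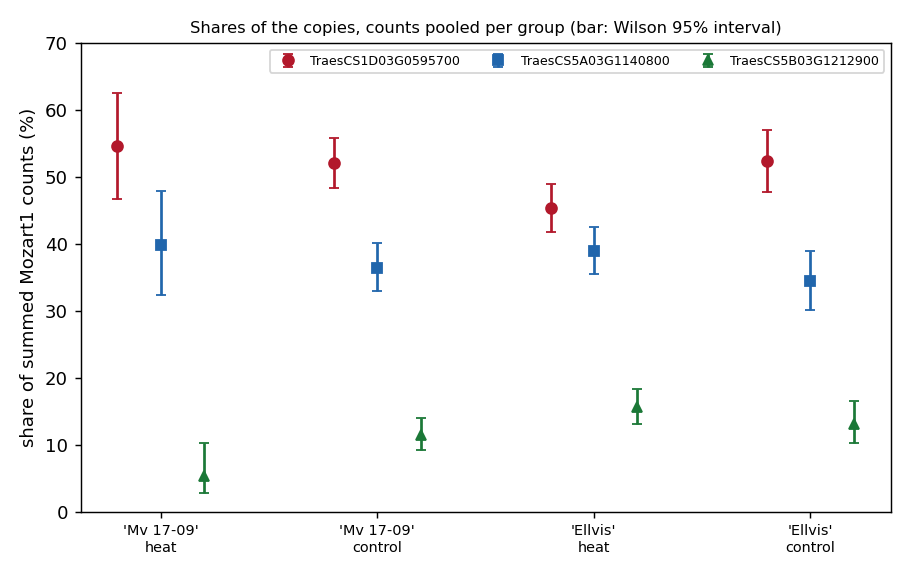
Share of the summed Mozart1 counts held by each of the 3 genes (vertical axis, percent), with counts pooled over the 3 libraries of each group; bars are Wilson 95% intervals for counting error. The 1D gene holds 45.4 to 54.7% in the 4 groups and the 5B gene 5.41 to 15.6%.

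As background for the Mozart1 genes, 18 further genes of the γ-tubulin complex were taken from the same list of wheat orthologs of Arabidopsis spindle genes, and all 18 were tested. After heat stress in ‘Mv 17-09’, 1 of 18 was lower and 0 were higher by edgeR, where 6.93% and 4.67% of all genes were, and their median log2 fold change was -0.36, where that of all genes was 0. At an unadjusted p under 0.05, 6 were lower and 0 higher. By limma 2 were lower, both of them GCP3 copies. In ‘Ellvis’ 0 of 18 were called by edgeR, DESeq2 or limma, with 3 lower and 0 higher at an unadjusted p under 0.05, and the median was -0.22.

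GCP3 is the subunit to which MOZART1 binds in Arabidopsis. The called gene was 1 of its 6 copies, TraesCS6D03G0217000 on chromosome 6D. It fell to 0.213 ± 0.214 CPM in heat-stressed ‘Mv 17-09’, against 0.966 ± 0.194 CPM in controls (SD, n = 3 each), a log2 fold change of -2.14 (SE 0.6, edgeR adjusted p = 0.0182). In heat-stressed ‘Ellvis’ it had 1.95 ± 0.176 CPM, against 1.89 ± 0.645 CPM in controls (SD, n = 3 each). Its heat effects in the cultivars, ‘Mv 17-09’ minus ‘Ellvis’, were -2.12 apart on the log2 scale (SE 0.72, edgeR adjusted p = 0.1), which missed the p threshold. The call was lost without heat-stressed ‘Mv 17-09’ replicate 1 or 2 or ‘Mv 17-09’ control replicate 3, and when each cultivar was fitted alone.

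All 6 GCP3 copies had a negative heat log2 fold change in ‘Mv 17-09’ (-2.14 to -0.37, median -0.57), and 2 of 6 did in ‘Ellvis’ (-0.19 to 0.22, median 0.10). Of all 70527 genes tested, 34822 had a negative value in ‘Mv 17-09’ and 34932 in ‘Ellvis’. Copies in different subgenomes can share reads, so the 6 values are not independent. The copy with the highest mean level, TraesCS5D03G0547400, had a log2 fold change of -0.53 (SE 0.19, edgeR adjusted p = 0.0577) in ‘Mv 17-09’ and 0.22 (SE 0.18, edgeR adjusted p = 0.539) in ‘Ellvis’. As a difference between cultivars, the heat effect was called for 0 of the 6 by edgeR and DESeq2 and for 1, the 6D copy, by limma, with 3 lower at an unadjusted p under 0.05.

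In the other families no gene passed both thresholds after heat stress. The γ-tubulin gene with the highest mean level, TraesCS1D03G0253100, had 15.3 ± 1.6 CPM in heat-stressed and 16.6 ± 1.52 CPM in control ‘Mv 17-09’, and 12.2 ± 0.692 CPM in heat-stressed and 12.9 ± 3.05 CPM in control ‘Ellvis’ (SD, n = 3 each). The 1A copy of γ-tubulin, TraesCS1A03G0242000, named after its values were seen, had 6.47 ± 0.996 CPM in heat-stressed and 10.4 ± 2.21 CPM in control ‘Ellvis’ (SD, n = 3 each). Its log2 fold change there, -0.76 (SE 0.19, edgeR adjusted p = 0.0222), was short of 2-fold, and in ‘Mv 17-09’ it was -0.34 (SE 0.18, edgeR adjusted p = 0.207). GCP2, a core subunit that pairs with GCP3, had in its leading copy TraesCS2A03G0871800 a log2 fold change of -0.08 (SE 0.15) in ‘Mv 17-09’ and -0.30 (SE 0.15) in ‘Ellvis’. The leading GCP4 copy, TraesCS1A03G0230800, a subunit of the larger ring complex, had -0.55 (SE 0.24) in ‘Mv 17-09’ and -0.73 (SE 0.24) in ‘Ellvis’. The leading NEDD1 copy, TraesCS5B03G0455400, had -0.05 (SE 0.17) in ‘Mv 17-09’ and -0.20 (SE 0.18) in ‘Ellvis’.

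**Figure D3:**
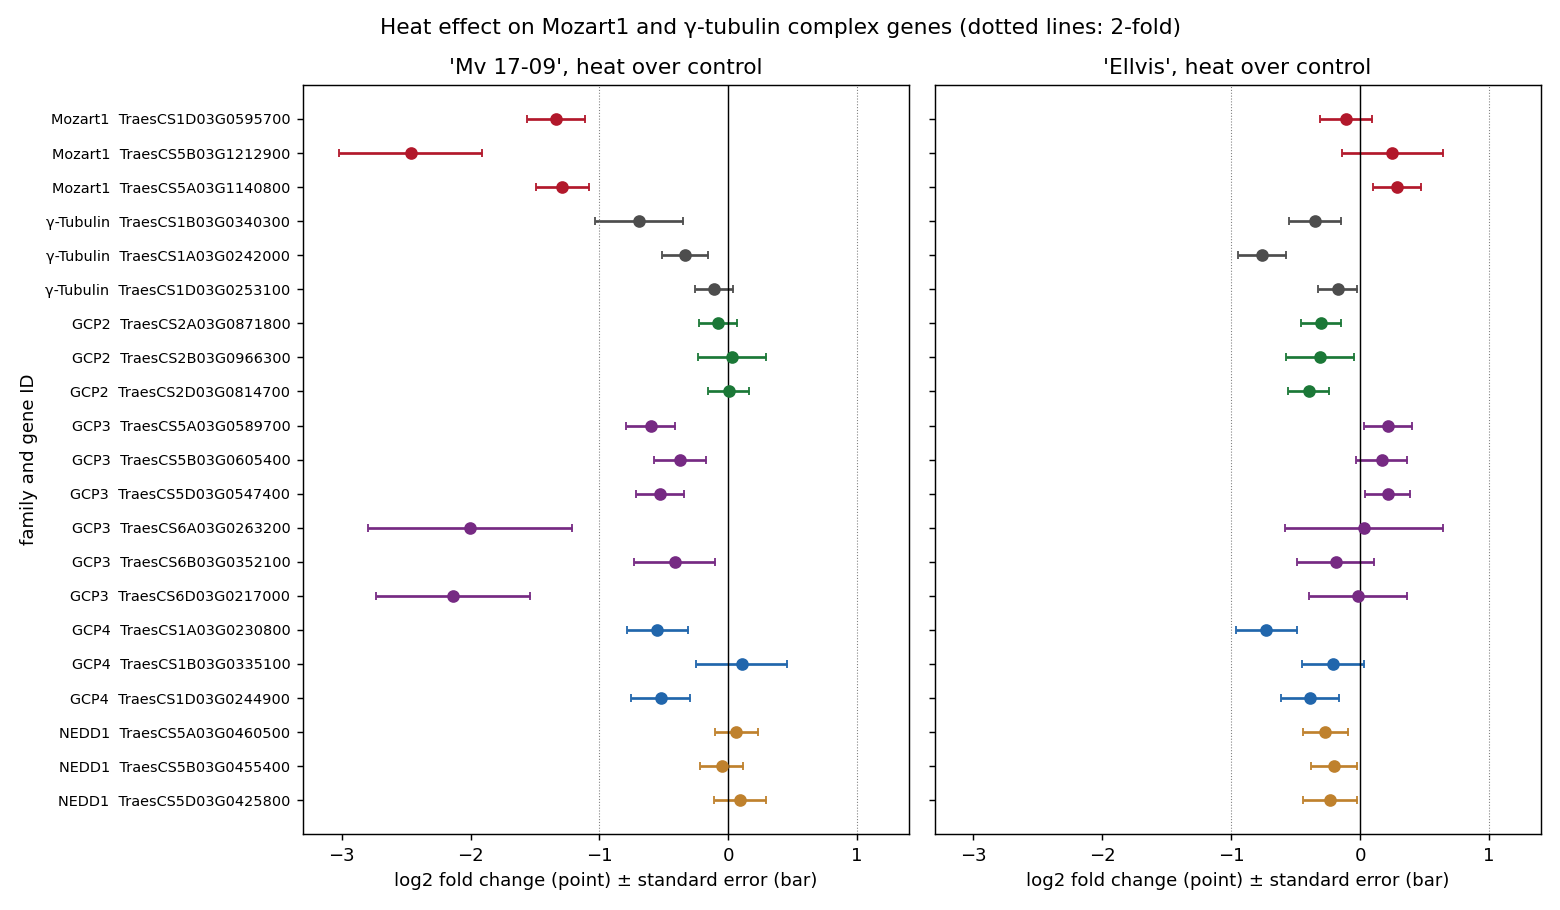
Log2 fold change of heat over control (horizontal axis; points, with bars of ± 1 standard error) for the 3 Mozart1 genes and 18 γ-tubulin complex genes, ‘Mv 17-09’ on the left and ‘Ellvis’ on the right. In ‘Mv 17-09’ the Mozart1 genes lie at -1.34, -2.46 and -1.29 and the GCP3 copies between -2.14 and -0.37, and the GCP2 and NEDD1 copies lie near 0.

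Within a library, the ratio of the summed Mozart1 counts to those of the 18 complex genes does not depend on how libraries are scaled. It was 4.39, 5.98 and 4.58 Mozart1 counts per 100 complex counts in heat-stressed ‘Mv 17-09’, against 11.2, 11.5 and 11.9 in ‘Mv 17-09’ controls. It was 13.2, 13.1 and 11.04 in heat-stressed ‘Ellvis’, against 9.95, 9.46 and 9.90 in ‘Ellvis’ controls. Heat-stressed ‘Mv 17-09’ was below all other libraries, and the shallow ‘Ellvis’ control was level with the other ‘Ellvis’ controls on this ratio. The numerator holds the genes chosen by their heat response, so the ratio is a description and not a separate check.

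Between the unstressed groups the ratio averaged 11.5 in ‘Mv 17-09’ and 9.77 in ‘Ellvis’ (two-sided exact permutation test, p = 0.1, the smallest that 3 against 3 libraries can give). The denominator holds copies that differed between the cultivars. The chromosome 1B copies of γ-tubulin (TraesCS1B03G0340300) and GCP4 (TraesCS1B03G0335100), chosen for mention after their values were seen, were lower in ‘Mv 17-09’ controls than in ‘Ellvis’ controls, by log2 differences of -2.96 (SE 0.24, edgeR adjusted p = 2.0e-07) and -2.42 (SE 0.28, edgeR adjusted p = 1.06e-05). With the 16 other complex genes the ratio was 11.9 in ‘Mv 17-09’ controls and 11.8 in ‘Ellvis’ controls. The 1B copies were left out because of their low values in ‘Mv 17-09’ controls, so a smaller gap follows from that choice. The same ratio was 5.12 in heat-stressed ‘Mv 17-09’ and 14.97 in heat-stressed ‘Ellvis’.

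**Figure D4:**
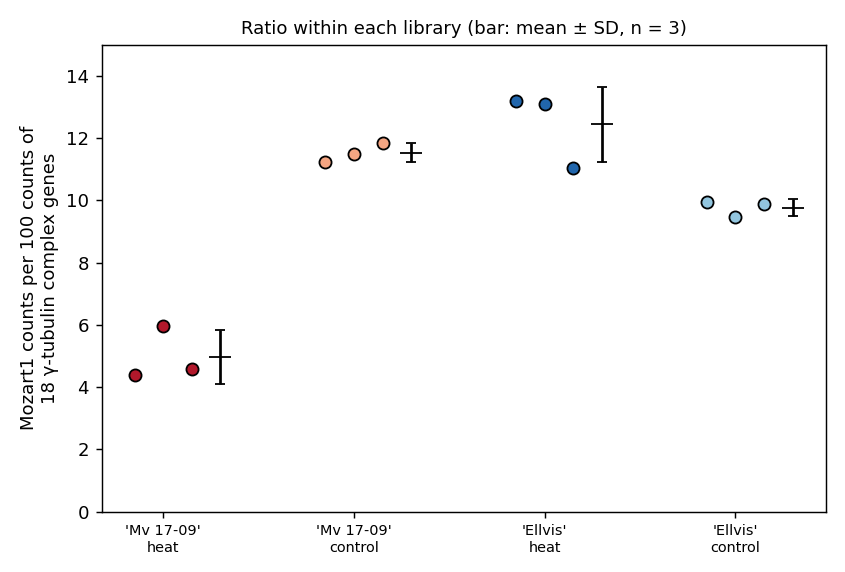
Summed counts of the 3 Mozart1 genes per 100 counts of the 18 γ-tubulin complex genes (vertical axis) in each library; points are libraries, and horizontal marks with bars are group means ± SD (n = 3). Heat-stressed ‘Mv 17-09’ lies at 4.39 to 5.98 and all other libraries at 9.46 to 13.2.

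Marker genes for some of the cells that make up the anther were followed in the same libraries. Of 32 tested genes of tapetal sporopollenin synthesis and export, 29 were lower and 0 higher after heat stress in ‘Mv 17-09’ (edgeR, median log2 fold change -2.06), and 0 were called in ‘Ellvis’ by edgeR, DESeq2 or limma, with 7 lower and 2 higher at an unadjusted p under 0.05 (median -0.25). Their summed level was 5267 to 6867 CPM in heat-stressed and 21500 to 24270 CPM in control ‘Mv 17-09’, and 16730 to 19540 CPM in heat-stressed and 17360 to 36200 CPM in control ‘Ellvis’. These sporopollenin genes thus moved in the same libraries as the Mozart1 genes. They cover a single pathway of the tapetum and do not stand for the whole layer. The study reports higher expression after heat stress in both cultivars for tapetal genes of pollen coat synthesis and of callose dissolution. Whether the amount of tapetum changed was not tested. Of 30 meiocyte markers, 2 were lower and 2 higher in ‘Mv 17-09’ (median 0.11), and 1 was lower and 0 higher in ‘Ellvis’ (median -0.06). Aurora kinase and TPX2 genes, which act in spindles of dividing cells, were lower for 5 of 11 in ‘Mv 17-09’ (median -1.21) and for 3 of 11 in ‘Ellvis’ (median -0.71). Of all genes tested, 6.93% were lower and 4.67% higher by edgeR in ‘Mv 17-09’, and 1.64% were lower and 1.98% higher in ‘Ellvis’. The part of cell composition in the Mozart1 values was not tested, and in RNA of whole anthers fewer cells of a type and less RNA per cell cannot be told apart.

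Among 682 genes of the meiosis, spindle, actin and tapetum lists, the 3 most like each Mozart1 gene over the 12 libraries were found by the root mean square difference of centred log2 CPM. For TraesCS1D03G0595700 they were the DNA topoisomerase II gene TraesCS1D03G0628900 (0.24), the tapetal cytochrome P450 gene CYP703A2 (TraesCS7A03G0761700, 0.30) and the fatty acyl-CoA reductase gene MS2 (TraesCS4B03G0748600, 0.31). For TraesCS5A03G1140800 they were another MS2 copy (TraesCS4A03G0036600, 0.25), the magnesium transporter gene MGT5 (TraesCS1B03G0635400, 0.29) and the same CYP703A2 copy (0.30). For TraesCS5B03G1212900 the values were larger, with the GCP3 copy TraesCS6D03G0217000 first (0.43), followed by the tapetal transcription factor genes MYB80 (TraesCS2D03G0760400, 0.51) and TDF1 (TraesCS4A03G0232500, 0.53). The Mozart1 genes were not each other's nearest genes, at 0.36 between the 1D and 5A genes, 0.86 between 1D and 5B and 0.89 between 5A and 5B. Within-group SDs of log2 CPM were 0.31, 0.26 and 0.66 for the 1D, 5A and 5B genes. All 12 libraries entered these distances, so they include the heat response by which the Mozart1 genes were chosen.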

How the data were processed

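RNA-seq counts of anthers were analysed. The deposited counts are whole numbers per gene model, which the authors made with CLC Genomics Workbench from reads mapped to the IWGSC RefSeq v2.1 assembly, after FastQC 0.11.8 per the submitters' processing notes. The kit marks strand. Not given in the sources used here are the strand setting and how reads matching several copies were counted. No column of another sample was left aside (0 columns).

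Counts were fitted with edgeR 4.0.16 in R 4.3.3 by the quasi-likelihood method, in 1 model of 4 groups and 12 libraries with TMM scaling. Genes were kept by filterByExpr (minimum count 10, minimum total 15), which left 70527. P-values were adjusted over all of them by the Benjamini-Hochberg method, and a call needed an adjusted p under 0.05 and a 2-fold change. The scripts were tested on simulated data. CPM used library totals of kept genes times the TMM factor. The labels do not say whether replicates were separate cultures of plants. The study names separately sequenced biological replicates, and the p-values reflect only how far these libraries vary.

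The text names the 3 listed Mozart1 genes, one further ID given that name in the study, the copy with the highest mean CPM in each γ-tubulin complex family, every copy of that complex called after heat stress, and the 3 genes most like each Mozart1 gene. Members, lists and tests were chosen with earlier results of these data known. DESeq2 1.42.0, limma 3.58.1, other scalings and filters, single-cultivar fits, a replicate block and the omission of each library were tried as alternatives. One alternative, leaving the 1B copies out of the ratio to the complex, was added after seeing the data.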

Additional observations from a re-analysis of the deposited data

Results flagged for a closer look

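TraesCS5A03G1140800 had heat-stressed libraries on opposite sides of the controls in the cultivars. All 3 heat-stressed ‘Mv 17-09’ libraries lay below their controls, as they did for 23.4% of all genes. All 3 heat-stressed ‘Ellvis’ libraries lay above theirs, as they did for 12.7% of all genes. The share of genes with both was not counted. The margin in ‘Ellvis’ was narrow, with 5.40 CPM in the lowest heat-stressed library and 5.22 CPM in control replicate 2. Subtracting the ‘Ellvis’ from the ‘Mv 17-09’ log2 fold change gave -1.58. This difference was not tested, because the gene was chosen by its heat response in these libraries. In ‘Ellvis’ the interval of the log2 fold change, -0.10 to 0.68, spans 0, so a change in ‘Ellvis’ is not shown.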

How the results depend on the processing

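The count of 3 Mozart1 genes lower in heat-stressed ‘Mv 17-09’ held in all 20 alternative fits, the 12 that left out a library among them. The genes were listed because they were called in these same libraries, so the refits are no separate check. Of all genes, the fewest were lower with library totals alone (4088 of 70527) and the most without ‘Ellvis’ control replicate 1 (6156 of 73743). The count of Mozart1 genes was 0 only at thresholds as strict as those of the study, rebuilt here with edgeR and DESeq2. Leaving out each library gave log2 fold changes in ‘Mv 17-09’ of -1.70 to -1.17 for the 1D gene, -3.83 to -1.88 for the 5B gene and -1.40 to -1.16 for the 5A gene. The differences between cultivars ranged over -1.59 to -1.08 (1D) and -4.08 to -2.16 (5B), and the heat-stressed differences over -1.57 to -1.02 (1D) and -4.31 to -2.36 (5B). The most negative 1D values came without heat-stressed ‘Mv 17-09’ replicate 2 and the most negative 5B values without replicate 3. The count of γ-tubulin complex genes lower in ‘Mv 17-09’, 1 of 18, was 2 by limma and 0 with each cultivar fitted alone, and 0 to 2 when a library was left out, with 2 without ‘Ellvis’ control replicate 1. In each case with 2, the second was the GCP3 copy TraesCS6A03G0263200. Without the 1B copies the ratio to the complex was 11.9 in ‘Mv 17-09’ controls, 14.97 in heat-stressed ‘Ellvis’ and 11.8 in ‘Ellvis’ controls.

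Scaling by library totals alone moved the median of all genes by 0.10 (log2) in ‘Mv 17-09’ and 0.11 in ‘Ellvis’, with 4088 genes lower and 4154 higher in ‘Mv 17-09’ (4887 and 3297 with TMM) and 857 lower and 1850 higher in ‘Ellvis’ (1157 and 1393 with TMM). The 1D, 5A and 5B genes then had -1.23, -1.18 and -2.36 in ‘Mv 17-09’. With the replicate number as a replicate block they had -1.34, -1.29 and -2.47. Deviations of same-numbered heat and control libraries had correlations of 0.0324, 0.0144 and 0.000877 (‘Mv 17-09’) and 0.179, 0.0982 and 0.0797 (‘Ellvis’). Not all exceeded 0.1 and the labels give the numbers no meaning, so the numbers were not taken as pairing the libraries. The 5B gene had 8 counts in all heat-stressed ‘Mv 17-09’ libraries, and ‘Ellvis’ control replicate 1 had 19 counts for the 3 genes, which limits both.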

Other observations

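A further gene, TraesCS5B03G1119000, is listed by the study under Microspherule and elsewhere in its materials carries the Mozart1 name. RefSeq annotates it as uncharacterized (LOC123113780). It had 12.6, 21.1 and 37.9 CPM in heat-stressed ‘Mv 17-09’, against 72.5, 69.7 and 63.2 CPM in ‘Mv 17-09’ controls. The heat-stressed libraries lay below the controls and spread widely, with a log2 fold change of -1.52 (SE 0.3). In ‘Ellvis’ it had 41.6, 54.0 and 52.5 CPM in heat-stressed anthers, against 28.8, 54.5 and 56.5 CPM in controls, with a log2 fold change of 0.03 (SE 0.29). Between controls, ‘Mv 17-09’ minus ‘Ellvis’, the log2 difference was 0.50 (SE 0.29, edgeR adjusted p = 0.27), with all 3 ‘Mv 17-09’ libraries above all 3 ‘Ellvis’ libraries.

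Augmin, the complex that places γ-tubulin complexes on existing microtubules, was represented by 6 genes. After heat stress 0 of 6 were called in ‘Mv 17-09’ and 0 of 6 in ‘Ellvis’ by edgeR, DESeq2 or limma. At an unadjusted p under 0.05, 1 was lower in ‘Mv 17-09’ and 0 in ‘Ellvis’. Their log2 fold changes were -0.74 to 0.02 in ‘Mv 17-09’ and -0.15 to 0.16 in ‘Ellvis’.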
